A study of Mus musculus with 11 samples.

Results

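The genes described here are 50 of the 30145 genes measured on the arrays: the enzymes that make, break down and receive the signal of the second messengers cAMP and cGMP. They were picked by gene name, by a rule that uses no measured value, although earlier results of these data were known when the set was drawn up. The set comprises 10 adenylyl cyclases, 3 soluble guanylyl cyclase subunits, 8 receptor guanylyl cyclases and natriuretic peptide receptors, 21 phosphodiesterase genes, 2 cGMP-dependent protein kinases, and 2 catalytic and 4 regulatory subunits of the cAMP-dependent protein kinase (PKA). Another 2 genes that match by name, Gucy1a3 (now Gucy1a1) and Pde4d, share their array feature with a microRNA gene and were not analysed here.

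The study set out to compare the transcriptomes of a trio of mouse organs that develop from the neural crest: the carotid body, an arterial sensor of oxygen, the adrenal medulla, which releases adrenaline, and the superior cervical ganglion, which holds sympathetic neurons. All samples were total RNA from wild-type C57B6 mice of both sexes aged 2 months, with 3 arrays of the carotid body, each from tissue pooled from 10 mice, and 4 arrays each of the adrenal medulla and the ganglion, each from tissue pooled from 3 mice. A replicate is therefore a pool and not an animal, and the labels do not say how mice were divided among the pools, so the p-values measure the spread between these pools. Levels are log2 expression values as deposited, given as mean ± SD over n = 3 carotid body arrays or n = 4 arrays of either other tissue; differences are on the same log2 scale, and folds are 2 raised to them.

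In general, adenylyl cyclases make cAMP when G protein-coupled receptors release an active G alpha subunit. Soluble guanylyl cyclase makes cGMP when it binds nitric oxide, and the receptor guanylyl cyclases make cGMP when they bind natriuretic or other peptides. PKA and the cGMP-dependent kinases then phosphorylate channels, enzymes and transcription factors, while phosphodiesterases end the signal, and families of them differ in which nucleotide they take and in what regulates them. In the carotid body cAMP has long been studied as a modulator of oxygen sensing, and in vessels cGMP relaxes smooth muscle.

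To show regulatory sequence of members that the results turn on, promoter windows of 300 bases (250 before to 50 after the annotated start) are printed 5′ to 3′ in the gene's direction, from RefSeq on GRCm38.p6. Npr1 and Pde5a had the largest differences between tissues among members with a window, Gucy1b1 was the soluble cyclase subunit called higher in the ganglion than in both other tissues, and Prkar1a was the single member whose windows hold a full cAMP response element. Capitals mark TGACGTCA, the cAMP response element, and its half-site TGACG, on either strand; every full element also contains the half-site. The Npr1 window is at chr3:90465817-90466116 on the minus strand, that of Pde5a at chr3:122728908-122729207 on the plus strand, that of Gucy1b1 at chr3:82074662-82074961 on the minus strand, and that of Prkar1a, 1 of 6 annotated, at chr11:109650612-109650911 on the plus strand.
Npr1: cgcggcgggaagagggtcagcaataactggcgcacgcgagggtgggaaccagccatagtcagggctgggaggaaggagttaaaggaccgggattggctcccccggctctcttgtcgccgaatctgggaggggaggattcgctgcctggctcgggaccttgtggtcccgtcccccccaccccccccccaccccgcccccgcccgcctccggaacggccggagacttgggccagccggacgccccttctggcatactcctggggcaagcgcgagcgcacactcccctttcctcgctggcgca
Pde5a: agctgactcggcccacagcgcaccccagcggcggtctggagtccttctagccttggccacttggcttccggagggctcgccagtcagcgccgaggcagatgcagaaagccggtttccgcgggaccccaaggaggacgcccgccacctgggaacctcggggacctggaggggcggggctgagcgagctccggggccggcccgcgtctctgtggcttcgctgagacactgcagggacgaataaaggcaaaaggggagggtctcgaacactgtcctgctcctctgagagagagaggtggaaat
Gucy1b1: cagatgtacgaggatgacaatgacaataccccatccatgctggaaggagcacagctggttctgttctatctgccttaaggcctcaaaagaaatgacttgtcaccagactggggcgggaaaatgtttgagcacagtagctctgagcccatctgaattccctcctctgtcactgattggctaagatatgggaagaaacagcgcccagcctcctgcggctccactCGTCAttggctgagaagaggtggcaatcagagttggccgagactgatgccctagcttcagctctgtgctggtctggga
Prkar1a: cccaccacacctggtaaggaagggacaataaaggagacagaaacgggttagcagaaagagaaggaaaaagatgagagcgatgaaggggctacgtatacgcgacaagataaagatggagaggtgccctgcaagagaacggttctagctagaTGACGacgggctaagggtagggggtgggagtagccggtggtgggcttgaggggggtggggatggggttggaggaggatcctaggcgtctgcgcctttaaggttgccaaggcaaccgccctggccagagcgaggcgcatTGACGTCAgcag
Of the 50 members, 40 had at least 1 window, 79 windows in all. The full element lay in 2 of the 79, both of them overlapping windows of Prkar1a, and in 1.79% of all 32851 windows. The half-site lay in 19 member windows (24.1%) and in 20.8% of all windows, and the hypoxia response core ACGTG in 14 (17.7%) against 19.6%. The windows of Npr1 and Pde5a hold none of these letters, and the Gucy1b1 window holds 1 half-site. These matches describe the letters of the windows and were not tied to the measured levels.

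Over all genes, and genes are no independent replicates, arrays of the same tissue correlated with Pearson's r of 0.9854 or more. Arrays of different tissues correlated at 0.9085 to 0.9638. Markers of the labelled tissues were present: all 8 neuronal markers were above background in each tissue and were highest in the ganglion, and of the chromaffin cell markers Pnmt, the adrenaline-making enzyme, was under background in the ganglion. Each tissue also held markers of other cells. All 8 adrenal cortex markers were above background on the adrenal medulla arrays, with a summed level (log2 of the sum) of 21.22 to 21.41 against 7.92 to 8.33 in the carotid body and 7.81 to 8.39 in the ganglion. The summed level of 10 smooth muscle and pericyte markers was 19.13 to 19.52 in the carotid body, 14.25 to 14.42 in the adrenal medulla and 11.85 to 12.55 in the ganglion, and that of 8 endothelial markers was 14.39 to 14.53, 15.27 to 15.82 and 10.39 to 10.75. Rgs5 made up most of the smooth muscle and pericyte sum in the carotid body, where it read 18.87 to 19.27. The next brightest of these markers there, Acta2, had a mean of 16.45. The carotid body arrays differed among themselves in neuronal markers, whose mean level was 12.72, 10.77 and 11.75 on replicates 1 to 3, against 8.85 to 9.31 in the adrenal medulla and 14.64 to 15.12 in the ganglion. In tissue RNA, fewer cells of a type and less RNA per cell cannot be told apart, and this holds for each difference below.

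**Figure D1:**
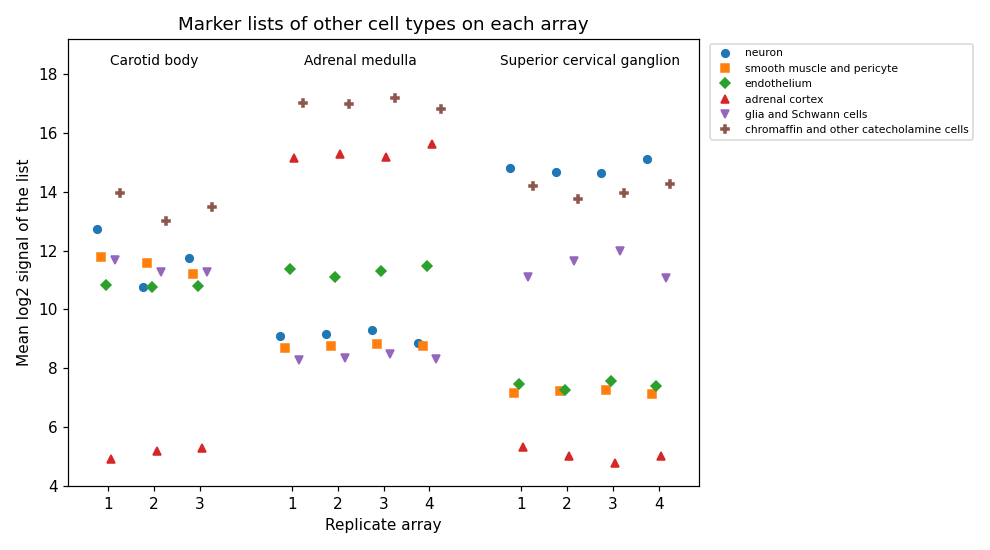
Mean log2 level (y axis) of 6 lists of cell type markers on each replicate array (x axis) of the 3 tissues; each point is 1 list on 1 array, with a colour and symbol for each list. Adrenal cortex markers stand at 15.14 or more in the adrenal medulla, and the 3 carotid body arrays spread from 10.77 to 12.72 in neuronal markers.

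To mark background, a bound was taken for each tissue from 540 vomeronasal receptor and keratin-associated protein genes, which were held to be silent here; the 95th percentile of their levels was 5.41 in the carotid body, 5.36 in the adrenal medulla and 5.45 in the ganglion. Of the 50 members, 37 lay above it in the carotid body (74%), 35 in the adrenal medulla (70%) and 38 in the ganglion (76%), against 56%, 54.1% and 54.2% of all genes. The 12 members under the bound in every tissue had means from 3.98 to 5.39. They were Adcy10, the bicarbonate-stimulated soluble adenylyl cyclase, Gucy1b2, a further soluble cyclase subunit, Gucy2c, the guanylin receptor, the sensory or orphan receptor cyclases Gucy2d, Gucy2e, Gucy2f and Gucy2g, Pde1c, Pde4c, and the photoreceptor enzymes Pde6a, Pde6b and Pde6c. A mean under the bound was not told apart from background, which does not say that the RNA is absent. On single arrays Pde1c passed the bound in the carotid body, at 5.42 and 5.46 on 2 arrays. Adcy2, Adcy8 and Pde11a lay above the bound in some tissues, and the other 35 lay above it in all.

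**Figure D2:**
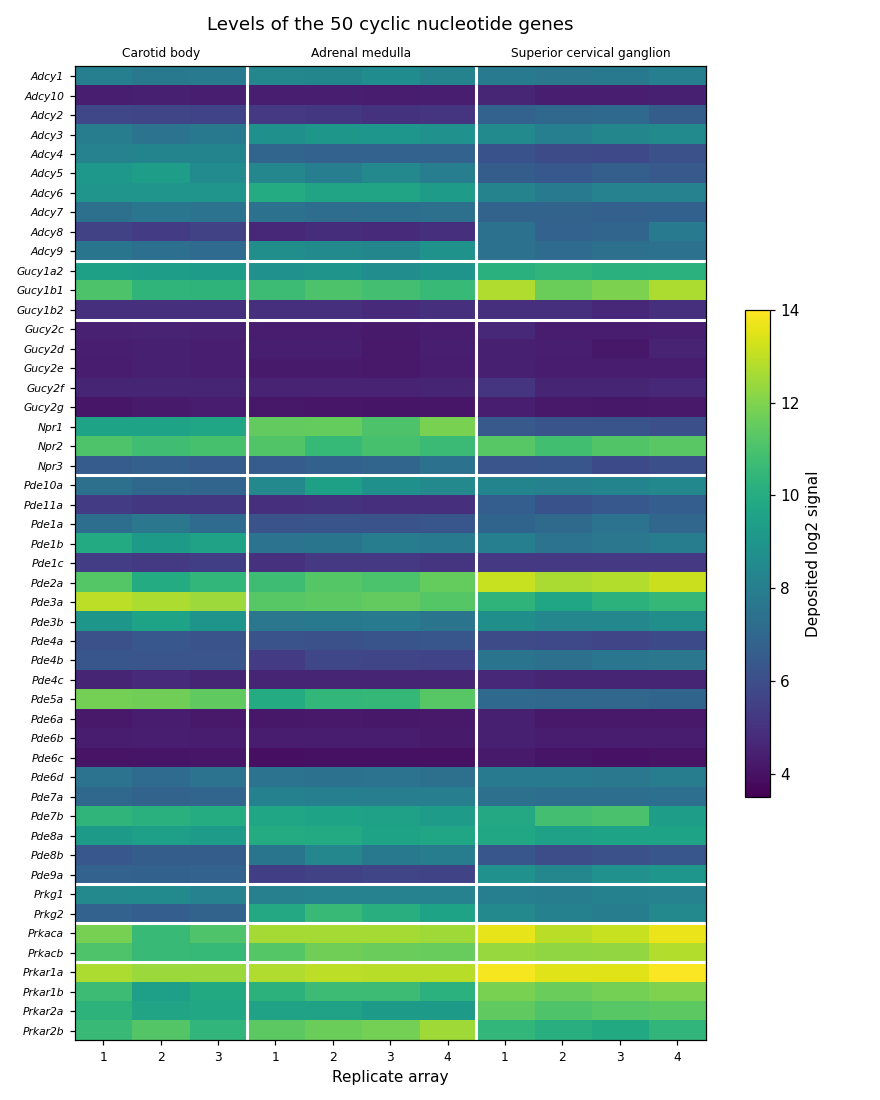
Deposited log2 level of the 50 members (rows, grouped by role) on each of the 11 arrays (columns, grouped by tissue). Colour runs from dark (low) to yellow (high). The 12 members under the background bound in every tissue have means of 3.98 to 5.39, and Npr1 and Pde5a are low on every ganglion array.

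A member was called where limma's moderated test gave an adjusted p under 0.05 over all genes and the log2 difference was at least 1, which is 2-fold. Between the carotid body and the adrenal medulla 7 of the 50 members were called higher in the carotid body and 9 lower, against 6.06% and 4.95% of all genes. Both directions together made 16 members, or 32%, against 11% of all genes and 11.8% of protein-coding genes. Against the ganglion, 6 members were higher in the carotid body and 14 lower (background 5.61% and 8.28%), which is 40% of the members against 13.9% of all genes and 15.8% of protein-coding genes. Between the adrenal medulla and the ganglion 9 were higher in the adrenal medulla and 10 lower (background 5.72% and 7.50%), or 38% against 13.2% of all genes and 16.3% of protein-coding genes. The 3 comparisons share their arrays, so these counts are not independent of each other, and the members were more often above background than genes at large.

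The members' differences were spread around 0 in both directions. Their median difference was 0.07 for the carotid body minus the adrenal medulla, -0.02 for the carotid body minus the ganglion and -0.08 for the adrenal medulla minus the ganglion, against 0.05, -0.02 and -0.08 over all genes. The median size of the difference, whatever its sign, was 0.52, 0.56 and 0.79 for members and 0.21, 0.23 and 0.23 for all genes. Called higher in the carotid body than in both other tissues were Adcy4, Pde1b, Pde3a and Pde5a (4 members; background 2.41%, or 2.38% of protein-coding genes). The adrenal medulla held 5 such members, Adcy9, Npr1, Pde8b, Prkg2 and Prkar2b (2.45%; 3.45%), and the ganglion 9, Adcy2, Adcy8, Gucy1b1, Pde11a, Pde2a, Pde4b, Pde9a, Prkar1b and Prkar2a (5.07%; 6.41%). In all, 29 members were called in at least 1 comparison and 21 in none, and Npr1, Pde3a, Pde5a, Pde9a and Prkg2 were called in all 3. The shares of all genes called at least once or in all 3 were not counted. These counts are therefore not read as a result about the members.

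**Figure D3:**
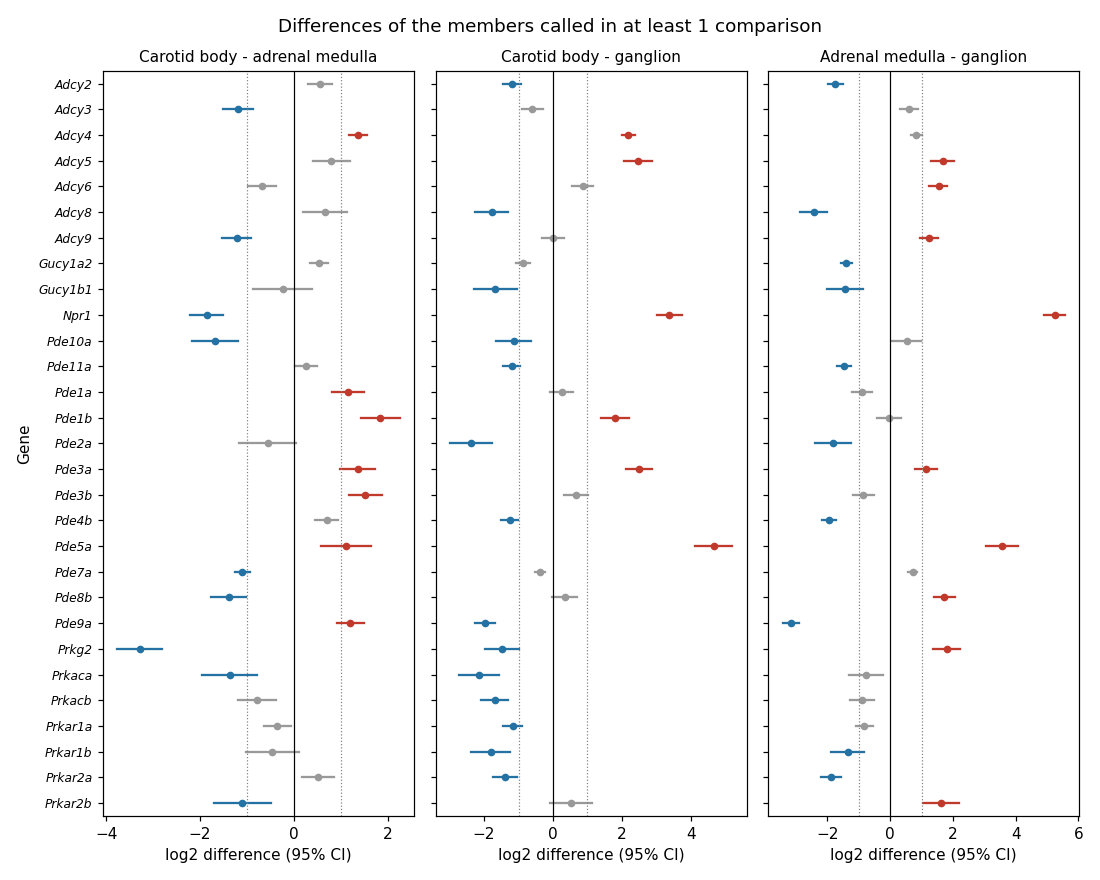
Log2 differences between tissues (x axes, 1 panel for each comparison) of the 29 members called at least once, with 95% confidence intervals from limma. Red points were called higher and blue lower in the first-named tissue, grey points were not called, and dotted lines mark a difference of 1 in either direction; Npr1 reaches 5.24 and Pde9a -3.16 in the adrenal medulla minus the ganglion.

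Of the receptors that make cGMP, Npr1 separated all 3 tissues, while Npr2 was called in no comparison. Npr1 (feature TC0300002371.mm.1), the receptor for atrial and brain natriuretic peptides, had levels of 11.46, 11.53, 11.06 and 11.88 on the adrenal medulla arrays. The carotid body arrays gave 9.61, 9.58 and 9.69, and the ganglion arrays 6.43, 6.24, 6.24 and 6.05. No array of one tissue overlapped those of another, with the adrenal medulla highest and the ganglion lowest. Npr1 was 37.9-fold higher in the adrenal medulla than in the ganglion, a log2 difference of 5.24 (SE 0.15, adjusted p = 1.66e-09). It was 10.4-fold higher in the carotid body than in the ganglion (log2 difference 3.38, SE 0.16, adjusted p = 1.45e-07), and 3.62-fold lower in the carotid body than in the adrenal medulla (log2 difference -1.86, SE 0.16, adjusted p = 8.36e-06). Adrenal cortex markers moved with the adrenal medulla arrays and the summed level of endothelial markers was lowest in the ganglion, as given above. Of the 8 endothelial markers, Vwf was lower in the adrenal medulla (6.45) than in the ganglion (7.23). In the carotid body 3 of the 8 were called higher than in the adrenal medulla and 4 lower. The part of cortex and endothelium in the Npr1 differences was not tested.

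Npr2, the receptor for C-type natriuretic peptide, read 11.13, 10.53, 10.94 and 10.65 in the adrenal medulla, 11.10, 10.79 and 10.95 in the carotid body and 11.26, 10.83, 11.14 and 11.31 in the ganglion, with overlapping tissues. Its difference was 0.13 for the carotid body minus the adrenal medulla (95% interval -0.22 to 0.49, adjusted p = 0.59) and -0.19 for the carotid body minus the ganglion (-0.54 to 0.17, adjusted p = 0.427). For the adrenal medulla minus the ganglion it was -0.32 (-0.65 to 0.01, adjusted p = 0.123). These intervals lie within a 2-fold difference in either direction. Npr3, the clearance receptor, which binds the peptides without a cyclase, was not called, at 6.62 ± 0.09 in the carotid body, 6.93 ± 0.38 in the adrenal medulla and 6.13 ± 0.20 in the ganglion. Neither the 3 natriuretic peptide genes (Nppa, Nppb and Nppc) nor Corin, a protease that processes such peptides, were called, and their means were 5.21 or less, under the bound, in the 3 tissues. On single arrays Nppb passed the bound once, at 5.91 on carotid body replicate 2.

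Of the nitric oxide receptor subunits, Gucy1b1 was called higher in the ganglion than in both other tissues. Gucy1b1 (TC0300002219.mm.1), the beta subunit that every nitric oxide-sensitive cyclase needs, read 12.74, 11.64, 11.92 and 12.69 on the ganglion arrays. It read 11.07, 10.35 and 10.31 in the carotid body and 10.70, 11.07, 10.86 and 10.62 in the adrenal medulla. Those tissues overlapped each other, and both lay under every ganglion array. Gucy1b1 was 3.19-fold lower in the carotid body than in the ganglion (log2 difference -1.67, SE 0.28, adjusted p = 0.000801) and 2.71-fold lower in the adrenal medulla (log2 difference -1.44, SE 0.26, adjusted p = 0.00128). Gucy1a2, an alpha subunit, was at 9.36 ± 0.08 in the carotid body, 8.83 ± 0.13 in the adrenal medulla and 10.23 ± 0.08 in the ganglion. It was called only between the adrenal medulla and the ganglion, with a difference of -1.40 (SE 0.08, adjusted p = 1.81e-07). Of the 3 nitric oxide synthases Nos3, the endothelial enzyme, was 3.11-fold higher in the carotid body than in the ganglion (log2 difference 1.64, adjusted p = 5.36e-07), and the set had no other call.

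The cGMP-dependent kinases differed in pattern. Prkg2 (TC0500002814.mm.1), the membrane-anchored kinase, read 9.83, 10.60, 10.13 and 9.58 in the adrenal medulla. Its levels were 8.45, 8.13, 7.93 and 8.45 in the ganglion and 6.80, 6.64 and 6.83 in the carotid body. The tissues did not overlap, and the carotid body was lowest. The carotid body was 9.7-fold below the adrenal medulla (log2 difference -3.28, SE 0.22, adjusted p = 1.15e-06) and 2.79-fold below the ganglion (log2 difference -1.48, SE 0.22, adjusted p = 0.000295), and the adrenal medulla was 3.47-fold above the ganglion (log2 difference 1.80, SE 0.20, adjusted p = 3.49e-05). All 8 adrenal cortex markers were called higher in the adrenal medulla than in each other tissue, and their part in the Prkg2 differences was not tested. Prkg1, the kinase of smooth muscle and sensory neurons, was not called, at 8.37 ± 0.20 in the carotid body, 8.13 ± 0.04 in the adrenal medulla and 8.05 ± 0.11 in the ganglion. Among the kinase's partners and substrates, Pln, which restrains the calcium pump of the sarcoplasmic reticulum, was above background in the carotid body alone, at 8.27 ± 0.38. It was at least 7.52-fold higher there than in the adrenal medulla (log2 difference 3.66, adjusted p = 8.35e-08) and at least 7.05-fold higher than in the ganglion (3.24, adjusted p = 2.8e-07). Of the 4 genes of this kind measured, Pln was the only 1 called between the carotid body and the adrenal medulla. Between the carotid body and the ganglion, Pln and Mrvi1 were called higher (50%, against 5.61% of all genes). Trpc6 was called lower (25%, against 8.28%), with a difference of -1.45 (adjusted p = 6.41e-05).

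The phosphodiesterases that remove cGMP split between tissues. Pde5a (TC0300001249.mm.1), the cGMP-specific enzyme blocked by sildenafil, read 11.80, 11.73 and 11.42 in the carotid body. It read 9.94, 10.46, 10.49 and 11.28 in the adrenal medulla and 7.07, 7.02, 6.97 and 6.88 in the ganglion. No arrays overlapped between tissues, and the ganglion arrays were the lowest. Pde5a was 25.4-fold higher in the carotid body than in the ganglion (log2 difference 4.67, SE 0.24, adjusted p = 2.8e-07), and 11.8-fold higher in the adrenal medulla than in the ganglion (log2 difference 3.56, SE 0.23, adjusted p = 3.88e-07). Between the carotid body and the adrenal medulla it was 2.16-fold higher in the carotid body (log2 difference 1.11, SE 0.24, adjusted p = 0.00531). That call ended with a difference of 0.91 without adrenal medulla replicate 1, of 0.96 with arrays centred on their medians and of 0.98 with array weights. The summed level of smooth muscle and pericyte markers was also highest in the carotid body and lowest in the ganglion. Of the 10 markers, 7 were called higher in the carotid body than in the adrenal medulla and 8 higher than in the ganglion. Des, Pdgfrb and Kcnj8 had higher means in the adrenal medulla than in the carotid body, and were not called there. The part of these cells in the Pde5a differences was not tested.

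Pde9a (TC1700000535.mm.1), the cGMP-specific enzyme of highest affinity, was highest in the ganglion, where Pde5a was lowest. It read 8.80, 8.37, 8.80 and 9.02 in the ganglion, 6.80, 6.77 and 6.80 in the carotid body and 5.43, 5.57, 5.69 and 5.67 in the adrenal medulla. The tissues did not overlap, and the adrenal medulla levels lay just above the bound of 5.36. Pde9a was 8.92-fold lower in the adrenal medulla than in the ganglion (log2 difference -3.16, SE 0.12, adjusted p = 9.02e-09), 3.89-fold lower in the carotid body than in the ganglion (log2 difference -1.96, SE 0.13, adjusted p = 1.55e-06) and 2.29-fold higher in the carotid body than in the adrenal medulla (log2 difference 1.20, SE 0.13, adjusted p = 4.8e-05).

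**Figure D4:**
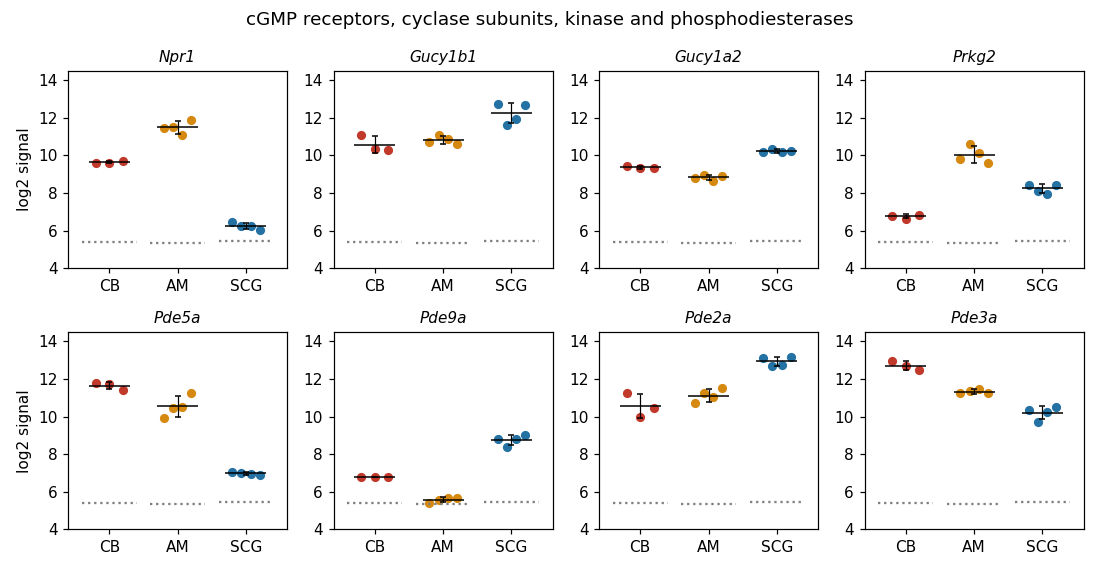
Log2 level (y axes) of 8 members of the cGMP branch on each array of the adrenal medulla (AM), carotid body (CB) and superior cervical ganglion (SCG); points are arrays, bars the mean ± SD, and the dotted grey line the background bound. Pde5a is low and Pde9a high on the SCG arrays, and the 4 AM arrays of Prkg2 lie at 9.58 or more, above all others.

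Phosphodiesterases that cGMP itself regulates also differed. Pde2a (TC0700001432.mm.1), which cGMP stimulates to break down cAMP, read 13.12, 12.68, 12.77 and 13.17 in the ganglion, 10.73, 11.23, 11.02 and 11.50 in the adrenal medulla and 11.23, 9.97 and 10.46 in the carotid body. All ganglion arrays lay above all others, while the carotid body and the adrenal medulla overlapped. It was 5.21-fold lower in the carotid body than in the ganglion (log2 difference -2.38, SE 0.28, adjusted p = 5.47e-05) and 3.53-fold lower in the adrenal medulla than in the ganglion (log2 difference -1.82, SE 0.25, adjusted p = 0.00019). The 3 carotid body arrays ranked in Pde2a as they did in neuronal markers and in catecholamine cell markers, with replicate 1 highest and replicate 2 lowest. Pde3a (TC0600001664.mm.1), a cAMP phosphodiesterase that cGMP inhibits, known from heart and smooth muscle, read 12.94, 12.70 and 12.46 in the carotid body, 11.26, 11.36, 11.48 and 11.24 in the adrenal medulla and 10.34, 9.73, 10.25 and 10.50 in the ganglion. The tissues did not overlap, with the carotid body highest. Pde3a was 5.64-fold higher in the carotid body than in the ganglion (log2 difference 2.50, SE 0.17, adjusted p = 1.74e-06) and 2.57-fold higher than in the adrenal medulla (log2 difference 1.36, SE 0.17, adjusted p = 0.000129). It was 2.19-fold higher in the adrenal medulla than in the ganglion (log2 difference 1.13, SE 0.16, adjusted p = 0.000189), a call that ended at a difference of 0.98 without ganglion replicate 2. Pde3b, the related enzyme of fat and liver, was 2.87-fold higher in the carotid body (9.20 ± 0.36) than in the adrenal medulla (7.68 ± 0.11), and was not called against the ganglion (8.54 ± 0.20). Adipocyte markers summed to 14.04 to 14.91 on the carotid body arrays, 9.67 to 10.08 on the adrenal medulla arrays and 9.39 to 10.13 on the ganglion arrays. Between the last 2 tissues Pde3b differed by -0.86 for the adrenal medulla minus the ganglion (SE 0.15, adjusted p = 0.000835). That difference was under the 2-fold limit. The adipocyte sums of these 2 tissues overlapped. Of the 6 adipocyte markers, 2 (Adipoq, at -1.47, and Retn, at -1.18) were called lower in the adrenal medulla than in the ganglion and none higher. The part of adipocytes in the Pde3b differences was not tested.

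Of the calcium and calmodulin-stimulated enzymes, Pde1b was at 9.57 ± 0.34 in the carotid body, 7.73 ± 0.22 in the adrenal medulla and 7.78 ± 0.26 in the ganglion. It was 3.59-fold higher in the carotid body than in the adrenal medulla (log2 difference 1.84, SE 0.19, adjusted p = 2.61e-05) and 3.46-fold higher than in the ganglion (log2 difference 1.79, SE 0.19, adjusted p = 2.66e-05). Pde1a was 2.23-fold higher in the carotid body than in the adrenal medulla (log2 difference 1.16, SE 0.15, adjusted p = 0.000181), and the Pde1c means were under the bound in every tissue. Among cAMP-specific enzymes, Pde4b was at 5.60 ± 0.20 in the adrenal medulla, 6.29 ± 0.02 in the carotid body and 7.55 ± 0.13 in the ganglion. Its ganglion level was 2.39-fold that of the carotid body (log2 difference -1.26 for the carotid body minus the ganglion, SE 0.11, adjusted p = 8.98e-06) and at least 3.85-fold that of the adrenal medulla (log2 difference -1.95 for the adrenal medulla minus the ganglion, SE 0.10, adjusted p = 8.7e-08). Pde7a was 2.14-fold lower in the carotid body (6.94 ± 0.10) than in the adrenal medulla (8.04 ± 0.06) (log2 difference -1.10, SE 0.07, adjusted p = 8.29e-07).

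Pde8b, a high-affinity cAMP enzyme known from the adrenal cortex, was at 7.91 ± 0.32 in the adrenal medulla, 6.52 ± 0.16 in the carotid body and 6.18 ± 0.17 in the ganglion. The adrenal medulla was 3.32-fold above the ganglion (log2 difference 1.73, SE 0.15, adjusted p = 5.48e-06) and the carotid body 2.62-fold below the adrenal medulla (log2 difference -1.39, SE 0.17, adjusted p = 8.84e-05). The 8 cortex markers were all called higher in the adrenal medulla than in the carotid body, and their part in the Pde8b difference was not tested. Pde10a, which takes both nucleotides, was lowest in the carotid body, at 7.11 ± 0.23 against 8.78 ± 0.48 in the adrenal medulla and 8.26 ± 0.11 in the ganglion, 3.18-fold and 2.21-fold lower (log2 differences -1.67, SE 0.22, adjusted p = 0.000202, and -1.14, SE 0.22, adjusted p = 0.002). Pde11a, also of both nucleotides, was above background in the ganglion alone, at 6.45 ± 0.22, at least 2.06-fold above the carotid body and at least 2.13-fold above the adrenal medulla. The cAMP enzymes Pde4a, Pde7b and Pde8a, and Pde6d, which carries lipid-modified proteins, were above background in every tissue and called in no comparison. Pde7b had the widest spread of the members in the ganglion, at 10.26 ± 0.79 against 10.17 ± 0.19 in the carotid body and 9.52 ± 0.18 in the adrenal medulla.

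Adenylyl cyclase isoforms were distributed differently across the tissues. Adcy4 (TC1400002102.mm.1), a calcium-insensitive isoform that G beta gamma stimulates, read 8.15, 8.22 and 8.24 in the carotid body, 6.91, 6.81, 6.81 and 6.81 in the adrenal medulla and 6.15, 5.96, 5.83 and 6.10 in the ganglion. The carotid body arrays lay above all others and the ganglion arrays below. Adcy4 was 2.57-fold higher in the carotid body than in the adrenal medulla (log2 difference 1.36, SE 0.08, adjusted p = 7.43e-07) and 4.57-fold higher than in the ganglion (log2 difference 2.19, SE 0.08, adjusted p = 3.32e-08). Adcy5 (TC1600000491.mm.1), an isoform that calcium inhibits, read 9.09, 9.33 and 8.58 in the carotid body, 8.38, 7.98, 8.46 and 7.98 in the adrenal medulla and 6.60, 6.41, 6.67 and 6.43 in the ganglion. No tissues overlapped, and the ganglion was lowest. It was 5.55-fold higher in the carotid body than in the ganglion (log2 difference 2.47, SE 0.18, adjusted p = 2.73e-06) and 3.18-fold higher in the adrenal medulla than in the ganglion (log2 difference 1.67, SE 0.17, adjusted p = 1.47e-05). Between the carotid body and the adrenal medulla the Adcy5 difference of 0.80 (SE 0.18, adjusted p = 0.00616) was under the 2-fold limit.

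Adcy6 (TC1500002181.mm.1), the closest relative of Adcy5, read 9.95, 9.65, 9.64 and 9.28 in the adrenal medulla, 8.96, 8.96 and 8.96 in the carotid body and 8.19, 7.88, 8.16 and 8.15 in the ganglion. The adrenal medulla was highest without overlap, and it was 2.9-fold above the ganglion (log2 difference 1.54, SE 0.13, adjusted p = 3.23e-06). The equal values on the 3 carotid body arrays are as deposited. Such ties, on at least 2 arrays of a tissue, occurred in 20 members, and their effect on the spread was not tested. Adcy9, which is hardly stimulated by forskolin, was also highest in the adrenal medulla, at 8.59 ± 0.24 against 7.37 ± 0.20 in the carotid body and 7.36 ± 0.14 in the ganglion. The differences were -1.22 (SE 0.14, adjusted p = 6.89e-05) for the carotid body minus the adrenal medulla and 1.23 (SE 0.13, adjusted p = 2.31e-05) for the adrenal medulla minus the ganglion. Adcy3, the isoform of olfactory neurons and primary cilia, was 2.29-fold lower in the carotid body (7.73 ± 0.23) than in the adrenal medulla (8.92 ± 0.14) (log2 difference -1.19, SE 0.14, adjusted p = 7.63e-05).

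The isoforms called higher in the ganglion than in both other tissues were Adcy8 and Adcy2. Adcy8 (TC1500001641.mm.1), a neuronal isoform that calcium and calmodulin stimulate, read 7.45, 6.80, 6.94 and 7.86 in the ganglion, 5.55, 5.35 and 5.55 in the carotid body and 4.71, 4.89, 4.81 and 4.90 in the adrenal medulla. The ganglion arrays lay above all others, the carotid body arrays lay around the bound of 5.41 and the adrenal medulla arrays under 5.36. Adcy8 was at least 3.39-fold lower in the carotid body (log2 difference -1.78, SE 0.21, adjusted p = 7.04e-05) and at least 3.74-fold lower in the adrenal medulla (log2 difference -2.44, SE 0.20, adjusted p = 2.62e-06) than in the ganglion. Adcy2, stimulated by G beta gamma, was at 6.88 ± 0.22 in the ganglion and 5.69 ± 0.05 in the carotid body, a 2.28-fold difference, and was under the bound in the adrenal medulla. Adcy1, another calmodulin-stimulated isoform, was called in no comparison, at 7.85 ± 0.17 in the carotid body, 8.36 ± 0.18 in the adrenal medulla and 7.84 ± 0.17 in the ganglion. Adcy7 was not called either, at 7.49 ± 0.14, 7.34 ± 0.07 and 6.79 ± 0.06.

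Of the 6 cAMP-dependent kinase subunits, 5 had their highest mean in the ganglion. Prkaca (TC0800000938.mm.1), a catalytic subunit, read 13.62, 12.92, 13.12 and 13.68 in the ganglion, 12.58, 12.58, 12.58 and 12.50 in the adrenal medulla and 11.85, 10.61 and 11.10 in the carotid body. The tissues did not overlap, and the carotid body was lowest and most spread. The carotid body was 4.43-fold below the ganglion (log2 difference -2.15, SE 0.26, adjusted p = 8.48e-05) and 2.59-fold below the adrenal medulla (log2 difference -1.37, SE 0.26, adjusted p = 0.00231). Prkacb, the other catalytic subunit, was at 10.74 ± 0.33 in the carotid body, 11.53 ± 0.20 in the adrenal medulla and 12.43 ± 0.25 in the ganglion, and was called between the carotid body and the ganglion at 3.23-fold lower (log2 difference -1.69, SE 0.18, adjusted p = 3.02e-05).

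Among the regulatory subunits, Prkar1a (TC1100001834.mm.1), whose promoter window above holds the full response element, read 13.84, 13.47, 13.50 and 13.93 in the ganglion, 12.73, 12.94, 12.89 and 12.88 in the adrenal medulla and 12.70, 12.42 and 12.42 in the carotid body. Every ganglion array lay above all others, and no tissues overlapped. It was 2.25-fold lower in the carotid body than in the ganglion (log2 difference -1.17, SE 0.13, adjusted p = 3.57e-05), a call that ended at a difference of -0.85 when quantile normalisation was repeated. Prkar1b, a subunit of neural tissue, was 3.5-fold lower in the carotid body (log2 difference -1.81, SE 0.25, adjusted p = 0.000203) and 2.55-fold lower in the adrenal medulla (log2 difference -1.35, SE 0.23, adjusted p = 0.000877) than in the ganglion, where it was at 11.81 ± 0.16. Prkar2a was 2.61-fold and 3.73-fold lower in those tissues (log2 differences -1.38, SE 0.15, adjusted p = 4.34e-05, and -1.90, SE 0.14, adjusted p = 1.5e-06) than its ganglion level of 11.29 ± 0.14. Prkar2b ran the other way, with the adrenal medulla highest: 11.83 ± 0.50 there, 10.73 ± 0.41 in the carotid body and 10.21 ± 0.27 in the ganglion. It was 3.08-fold higher in the adrenal medulla than in the ganglion (log2 difference 1.62, SE 0.25, adjusted p = 0.000417) and 2.14-fold lower in the carotid body than in the adrenal medulla (log2 difference -1.10, SE 0.27, adjusted p = 0.0107). The last call ended at -0.87 without adrenal medulla replicate 4, at -0.94 without carotid body replicate 3 and at -0.95 with the replicate number as a block.

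**Figure D5:**
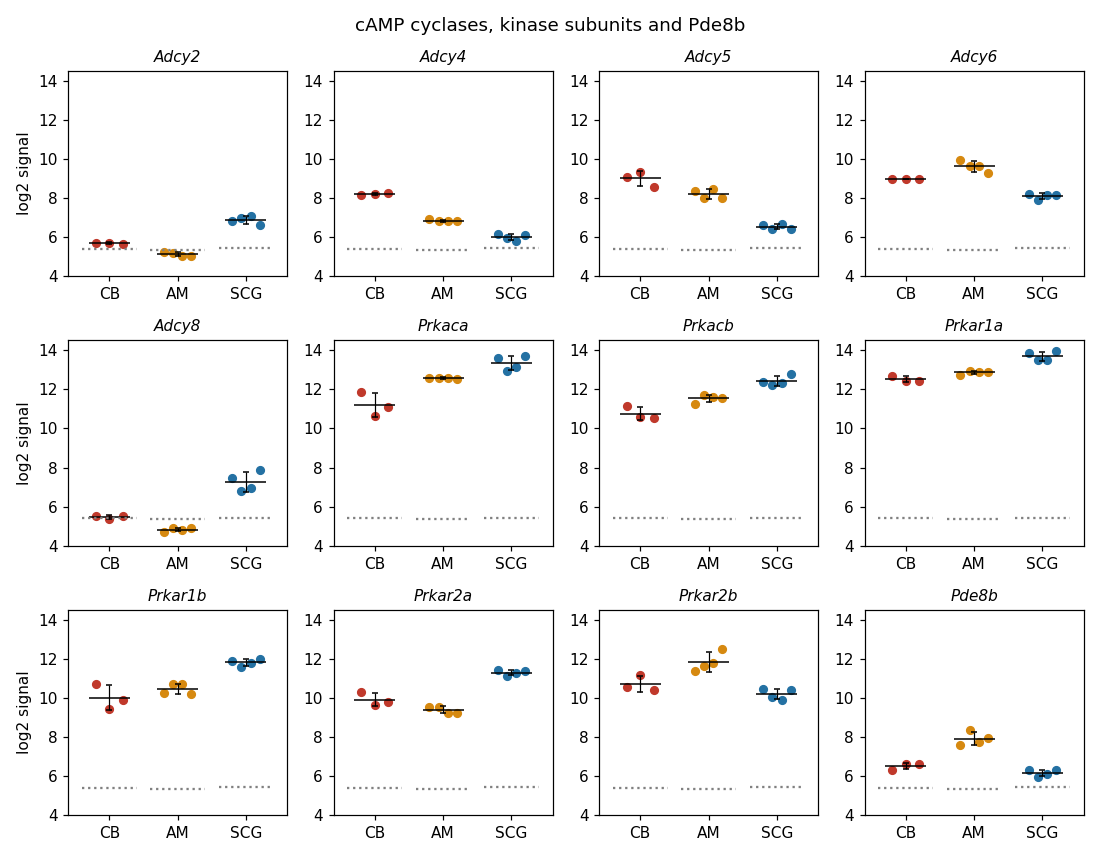
Log2 level (y axes) of 12 members of the cAMP branch on each array of the adrenal medulla (AM), carotid body (CB) and superior cervical ganglion (SCG); points are arrays, bars the mean ± SD, and the dotted grey line the background bound. Adcy4 and Adcy5 are highest on the CB arrays, Adcy8 on the SCG arrays, and Prkar2b on the AM arrays, and the CB arrays of Prkaca spread from 10.61 to 11.85.

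The carotid body arrays differed in the members that were lower there than in the ganglion. Of these 14, 13 had their highest value on carotid body replicate 1, the array highest in neuronal markers. Among them Adcy8 and Pde9a shared that value with another carotid body array. Of the 14, 5 (Pde2a, Prkaca, Prkar1a, Prkar1b and Prkar2a) ranked the 3 arrays in the order of the neuronal markers. Of the 6 members higher in the carotid body than in the ganglion, 3 read highest on replicate 1 and 1, Pde1b, followed that order. Catecholamine cell markers, chromaffin ones included, also ranked the arrays in that order. Their means were 13.97, 13.02 and 13.48 on replicates 1 to 3. Smooth muscle and pericyte markers (11.78) and glial markers (11.67) had their highest carotid body means on replicate 1 too. The shares of all genes with these rankings were not counted, so the counts are not read as a result about the members. Without replicate 1 the Prkaca difference from the ganglion was -2.48 and without replicate 2 it was -1.86; for Pde2a the values were -2.72 and -2.09. Leaving out any 1 array moved no called difference of a member by more than 0.50. All 8 neuronal markers were called lower in the carotid body than in the ganglion. Of the 8 catecholamine cell markers 3 were called lower and 2 higher. The part of these cells in the members' differences was not tested.

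Other genes of the pathways were taken from lists of 61 measured genes. Between the carotid body and the adrenal medulla 5 were called higher in the carotid body (8.2%, against 6.06% of all genes) and 2 lower (3.28% against 4.95%), shares near the background. Against the ganglion 5 were higher in the carotid body (8.2% against 5.61%) and 11 lower (18% against 8.28%). Between the adrenal medulla and the ganglion 5 were higher in the adrenal medulla (8.2% against 5.72%) and 12 lower (19.7% against 7.50%). Upstream of the cyclases, Gnal, a G alpha subunit of olfactory and striatal neurons that stimulates them, read 10.93, 10.25 and 10.70 in the carotid body, 7.80, 7.73, 7.92 and 7.08 in the adrenal medulla and 13.40, 13.18, 13.27 and 13.47 in the ganglion. The tissues did not overlap, and the differences were 2.99 for the carotid body minus the adrenal medulla (7.97-fold, adjusted p = 1.52e-06), -2.71 for the carotid body minus the ganglion (6.52-fold, adjusted p = 3.53e-06) and -5.70 for the adrenal medulla minus the ganglion (adjusted p = 4.43e-09). Gnas, the widely expressed stimulatory subunit, was not called. Adcyap1r1, the PACAP receptor, which acts through the stimulatory subunit, read 10.85, 9.65 and 10.09 in the carotid body, 13.54, 13.40, 13.88 and 13.18 in the adrenal medulla and 12.57, 12.03, 12.28 and 12.73 in the ganglion. The carotid body was lowest without overlap, 9.88-fold below the adrenal medulla (adjusted p = 5.61e-06) and 4.61-fold below the ganglion (adjusted p = 8.81e-05). The adrenal medulla was 2.14-fold above the ganglion (adjusted p = 0.00563), a call that ended without adrenal medulla replicate 3 (0.97) or ganglion replicate 2 (0.98).

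Downstream, of 18 kinase inhibitors and anchoring proteins, 2 were called higher in the carotid body than in the adrenal medulla (11.1%, against 6.06% of all genes) and none lower. Against the ganglion 1 was higher (5.56%, against 5.61%) and 3 were lower (16.7%, against 8.28%). Pkib, a PKA inhibitor, was higher in the carotid body than in both others, at 7.83, 7.95 and 7.33 against 5.46 to 5.57 in the adrenal medulla and 5.52 to 5.65 in the ganglion (4.59-fold and 4.32-fold, adjusted p = 4.33e-07 and 6.81e-07). Akap12, a PKA anchor of fibroblasts and endothelium, read 15.72, 14.61 and 14.98 in the carotid body and 14.49, 15.38, 15.61 and 14.39 in the ganglion, which overlapped, and 8.29 to 8.47 in the adrenal medulla. It was 6.72 higher in the carotid body than in the adrenal medulla on the log2 scale (adjusted p = 1.06e-07). Fibroblast markers summed to 18.00 to 18.19 in the carotid body, 16.04 to 16.21 in the ganglion and 13.00 to 13.21 in the adrenal medulla, and glia and Schwann cell markers to 15.57 to 16.50, 15.67 to 16.75 and 11.45 to 12.00 in the same order. The summed level of endothelial markers was highest in the adrenal medulla, as given above. Of the 8 endothelial markers, 3 were called higher in the carotid body than in the adrenal medulla and 4 lower. The part of fibroblasts, glia and endothelium in the Akap12 difference was not tested. Akap6, an anchor of muscle and neurons, was 13.4-fold lower in the carotid body and 24.6-fold lower in the adrenal medulla than in the ganglion (adjusted p = 9.12e-06 and 5.41e-07).

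Differences within pairs of related members were compared between tissues. On each array the level of one was subtracted from that of the other; since probes differ in brightness, the shift of this quantity between tissues can be read and its size within a tissue cannot. The pairs were chosen after the values were seen and carry no test. For Pde5a minus Pde9a the arrays ranged from 4.62 to 5.01 in the carotid body, 4.50 to 5.61 in the adrenal medulla and -2.13 to -1.35 in the ganglion. For Prkar2b minus Prkar2a they ranged from 0.30 to 1.54 in the carotid body, 1.82 to 3.28 in the adrenal medulla and -1.36 to -0.96 in the ganglion. For Prkg1 minus Prkg2 they ranged from 1.31 to 1.89 in the carotid body, -2.45 to -1.44 in the adrenal medulla and -0.41 to 0.19 in the ganglion. In the last 2 pairs no tissue overlapped another, and in the first the ganglion stood apart from the others, which overlapped.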

How the data were processed

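RNA was amplified and hybridised to Affymetrix mouse transcriptome arrays. The deposited values are log2 signals; per the submitters' processing notes, the authors used Affymetrix Expression Console and RMA. Versions and the array's build are not given in the sources used here, and the log base is taken from RMA. The highest value of each array lay at 19.65 to 19.93, beyond the range of a 16-bit scan, so a rescaling is possible and folds are on the deposited scale.

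Of 65956 transcript clusters, 30607 carried 1 gene symbol; the 2143 that carried several and the 33206 that carried none were left out. The brightest cluster was kept for the 355 genes with several, which left 30145 genes, and 819 symbols were updated from RefSeq. A single limma fit with tissue as the factor (limma 3.58.1, R 4.3.3) covered all 11 arrays, with Benjamini-Hochberg adjustment over all genes. Calls needed an adjusted p under 0.05 and a 2-fold difference. A fold given as "at least" takes the bound in place of arrays that lay under it. The fit was tested on simulated data.

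The members, lists and tests were chosen with earlier results of these data known. Every array's value is given for members called at a log2 difference of 2 or more and for the brightest of each role. Pairing by replicate number was checked: deviations of same-numbered arrays correlated at -0.17 to 0.25 over 10 pairs, so the numbers were not taken as pairs. Alternatives covered normalisation, centring, array weights, dim genes, the cluster rule, the bound, the block and leaving out each array. The number of arrays limits the precision.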

Additional observations from a re-analysis of the deposited data

Results flagged for a closer look

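In 12 of 100 groups of 4 arrays (each member in the adrenal medulla and in the ganglion), 1 array lay apart from the other 3 by more than Dixon's 95% limit. Chance alone gives about 1 in 20 where values are not repeated. In several flagged groups the other 3 arrays share the same deposited value, so that rate cannot be set against the 12. Of the 12 groups, 8 were of members under the background bound. On the ganglion arrays they were Adcy10 on replicate 1 (4.62, others 4.39 to 4.41), Gucy1b2 on replicate 3 (4.67, others 4.91), Pde6a on replicate 1 (4.43, others 4.22) and Pde6b on replicate 1 (4.43, others 4.28 to 4.29). On the adrenal medulla arrays they were Gucy2d on replicate 3 (4.21, others 4.38), Gucy2f on replicate 4 (4.60, others 4.50 to 4.51), Pde6b on replicate 4 (4.26, others 4.28) and Pde6c on replicate 1 (3.93, others 3.98 to 3.99).

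The other 4 were of members above the bound. Adcy4 read 6.91 on adrenal medulla replicate 1 and 6.81 on the others. Prkaca read 12.50 on adrenal medulla replicate 4 and 12.58 on the others. Prkg1 read 8.07 on adrenal medulla replicate 1 and 8.14 to 8.15 on the others. Adcy6 read 7.88 on ganglion replicate 2 and 8.15 to 8.19 on the others. Several of these groups hold repeated deposited values.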

How the results depend on the processing

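An alternative with the mean of the control features as a covariate, added after the data had been seen, kept every count of calls within 1.5 times. With no limit on the size of the difference, 14 members were called higher and 13 lower in the carotid body than in the adrenal medulla. Of all 30145 genes, 4139 and 4694 were. Against the ganglion 11 members were higher in the carotid body and 18 lower, and of all genes 4286 and 5985. Between the adrenal medulla and the ganglion 16 members were higher in the adrenal medulla and 16 lower, and of all genes 4700 and 5664. Members higher than in both others were 6 in the carotid body, 9 in the adrenal medulla and 14 in the ganglion, without a count of all genes here. Pathway genes then numbered 16 higher and 8 lower in the carotid body than in the adrenal medulla, 15 higher in the carotid body than in the ganglion and 19 higher in the adrenal medulla than in the ganglion; here dropping the limit itself adds the calls. Centring arrays on their medians gave 4 pathway genes lower in the carotid body than in the adrenal medulla, and the cause was not tested. It moved the median of all genes in that comparison from 0.05 to -0.10 and the calls from 1828 higher and 1492 lower to 1577 and 1966, while the members' counts were 6 and 9. Repeated quantile normalisation turned the all-gene split of the carotid body against the ganglion from 1691 and 2496 to 2150 and 2049, with 7 and 13 members. The sign of Npr2 turned under these settings, to -0.02 for the carotid body minus the adrenal medulla and 0.15 for the carotid body minus the ganglion, both small. With the replicate number as a block, the members called were 7 and 8, 6 and 14, and 9 and 10 in the 3 comparisons (carotid body against the adrenal medulla, carotid body against the ganglion, adrenal medulla against the ganglion), with Prkar2b the call lost; the numbers were not shown to pair the arrays. Leaving out each array gave 6 to 8 and 8 to 9, 6 and 14, and 8 to 9 and 10 to 11 members. With the 99th percentile as the bound, 29 members in the carotid body, 31 in the adrenal medulla and 33 in the ganglion were above background. The calls of Gnai1 between the carotid body and the adrenal medulla, of Adcyap1r1 between the adrenal medulla and the ganglion and of Akap11 between the carotid body and the ganglion each ended under at least 1 setting.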

Other observations

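Among further effectors of the pathways, 2 of the 3 measured pacemaker channels that cyclic nucleotides modulate were called lower in the other tissues than in the ganglion. On the log2 scale the difference from the ganglion was -1.93 for Hcn2 in the carotid body and -1.62 in the adrenal medulla, and for Hcn3 it was -1.90 and -2.06, all called in limma's fit. Hcn4 was not called, at -0.30 (adjusted p = 0.319) and -0.53 (adjusted p = 0.0514). These channels belong to a list of 13 measured cyclic nucleotide receptors. Of the 13, 3 (Hcn2, Hcn3 and Popdc3) were called lower in the carotid body and in the adrenal medulla than in the ganglion. That is 23.1%, against 8.28% and 7.50% of all genes, and none was called higher. Pkia, a PKA inhibitor, was 5.38-fold lower in the adrenal medulla than in the ganglion, while Crebbp, a coactivator of cAMP-responsive transcription, was called higher in the carotid body (13.19) and the adrenal medulla (13.11) than in the ganglion (11.88). Of the 2 transporters that carry cyclic nucleotides out of the cell, Abcc4 was 2.91-fold lower in the carotid body than in the adrenal medulla, and Abcc5 was called lower in both tissues than in the ganglion. No explanation of these values was tested.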
